A study of Mus musculus with 6 samples.

Results

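The expression of 10 genes of the bone morphogenetic protein (BMP) pathway was followed in mouse embryoid bodies from lines in which the TET enzymes, which oxidise methylated cytosine in DNA, were knocked out. The 10 genes were the ligands Bmp2, Bmp4, Bmp5 and Bmp7, the extracellular regulators Nog and Bmper, the intracellular inhibitor Smad6 and the Id targets Id1, Id2 and Id3. They were found by matching each probe's RefSeq accession to its gene. They had 11 of the 55418 probes kept, and were 10 of the 20805 gene symbols found on the array. Each gene was bright enough to test, which asked for a signal well above background on both arrays of some line, and 9 reached this on all 6 arrays.

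BMPs are secreted growth factors that bind paired receptor kinases at the cell surface. The receptors phosphorylate Smad1, Smad5 and Smad9, which join Smad4 and enter the nucleus, where the Id genes are among their best known targets. Secreted proteins such as noggin trap the ligands, and Smad6 dampens the signal inside the cell. In the early mouse embryo BMP4 is needed for mesoderm and primordial germ cells, while neural tissue forms where BMP signalling is held down.

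The TKO_26 and TKO_29 embryoid bodies came from separate embryonic stem cell lines with Tet1, Tet2 and Tet3 all knocked out, and the WT embryoid bodies came from a wild-type line. All had a mixed 129/C57BL6 background and were grown without the self-renewal factor LIF for 10 days, 2 in hanging drops and 8 in suspension. Total RNA was labelled with Cy3 and measured on 2 one-colour Agilent arrays per line, which the series calls technical replicas, so TKO had n = 2 lines and WT had n = 1 line. The sources used here do not say whether the arrays of a line share RNA, so p-values over arrays can reflect technical spread alone.

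One slide held all 6 arrays, TKO in one column and WT in the other, so genotype and slide position cannot be told apart. From 38.4% to 55.8% of spots were well above background. The array with the fewest, TKO_26 replicate 1, also had the noisiest repeated probes (median coefficient of variation 14.2%, against 4.32% to 5.61% on the others). Of the 7 probes of the targeted genes, 5 lay lower in both TKO lines. The brightest probe of Tet1 differed from WT by -1.02 in TKO_26 and -1.69 in TKO_29 (log2), and that of Tet2 by -1.09 and -1.90, while the brightest Tet3 probe differed in sign between the lines. No source used here places the probes against the deletions, and one lying outside a deletion checks nothing.

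Values below are log2 processed signals after subtraction of the array's own 75th percentile, so 0 is the 75th percentile of commonly detected probes on that array. Different probes bind with different strength, so the values compare samples and not genes. A gene "rose" or "fell" where TKO_26 and TKO_29 both differed from WT at least 2-fold, one way, at an adjusted p under 0.05 in limma over 21421 genes and unnamed features. This test compares lines. In bulk RNA, fewer cells of a type and less RNA per cell cannot be told apart.

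Of the 4 ligands, 3 fell and the other lay above WT, where 6.59% of all genes tested fell and 4.05% rose. Bmp4, Bmp5 and Bmp2 were 4.07-fold, 3.11-fold and 2.84-fold lower in TKO than in WT embryoid bodies (mean of the TKO lines), and Bmp7 was 1.85-fold higher without reaching 2-fold. No ligand's TKO arrays overlapped its WT arrays, as was so for 25.5% of all genes with TKO below and 24.9% with TKO above.

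Bmp4, the ligand required for gastrulation and mesoderm in the mouse, had levels of -1.04 and -1.29 on the TKO_26 arrays and -1.44 and -1.40 on the TKO_29 arrays, against 0.87 and 0.59 on the WT arrays. Its highest TKO array lay 1.63 below its lowest WT array. Bmp4 fell by 1.90 ± 0.16 in TKO_26 (SE; adjusted p = 0.00283) and by 2.15 ± 0.16 in TKO_29 (adjusted p = 0.00185), the largest differences of the 10 genes. A second Bmp4 probe was not well above background on any array and gave no measurement.

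Bmp2, a close relative of Bmp4 that is needed for heart and amnion formation, had -1.51 and -1.45 in TKO_26 and -1.59 and -1.66 in TKO_29, against 0.04 and -0.12 in WT. The arrays of a line differed by 0.16 at most, and the gap between the genotypes was 1.33. Bmp2 fell by 1.44 ± 0.12 in TKO_26 (adjusted p = 0.00282) and by 1.58 ± 0.12 in TKO_29 (adjusted p = 0.00196).

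Bmp5, which shapes skeletal and other mesenchymal tissues, had low signals. Its unscaled processed signals were 77.9 and 118 on the TKO_26 arrays and 297 and 132 on the TKO_29 arrays, against 199.9 and 290.2 on the WT arrays, and the signal of TKO_26 replicate 1 was not well above background. The TKO_29 replicate 1 array was the brightest of the 6, and scaling places its Bmp5 beside the other TKO arrays. The levels were then -6.39 and -6.58 in TKO_26 and -6.35 and -6.53 in TKO_29, against -4.72 and -4.94 in WT. Bmp5 fell by 1.66 ± 0.15 and 1.61 ± 0.15 in the TKO lines (adjusted p = 0.00352 in TKO_26 and 0.00313 in TKO_29). Counting the undetected array at the lowest detectable signal, the decrease was at least 3.03-fold. With normexp background correction, which raises dim signals, the difference was -1.18 and the call was lost in TKO_26 (adjusted p = 0.121). With the deposited matrix the difference was -1.19 and the call was kept. Both differences were smaller than the bound (1.60 in log2), which holds for the processed signal.

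Bmp7, a ligand of kidney, eye and epithelial development, ran the other way. It had 0.70 and 0.66 in TKO_26 and 0.57 and 0.62 in TKO_29, against -0.25 and -0.26 in WT. These were the tightest replicates among the 10 genes, with arrays of a line at most 0.05 apart. Bmp7 was higher by 0.93 ± 0.11 in TKO_26 (adjusted p = 0.00658) and by 0.85 ± 0.11 in TKO_29 (adjusted p = 0.00652), which passes the adjusted p in both lines but not the 2-fold requirement.

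The ligands can also be set against each other within an array, where scaling cancels out. Relative to its mean in WT, the ratio of Bmp4 to Bmp7 differed by -2.83 in TKO_26 and -3.00 in TKO_29 (log2). The ratio of Bmp2 to Bmp7 differed by -2.37 and -2.43, and that of Bmp5 to Bmp7 by -2.59 and -2.46. The WT arrays lay within 0.13 of their mean in each of these ratios. These values show unequal change between the ligand probes, whatever the scaling, and were not tested.

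**Figure D1:**
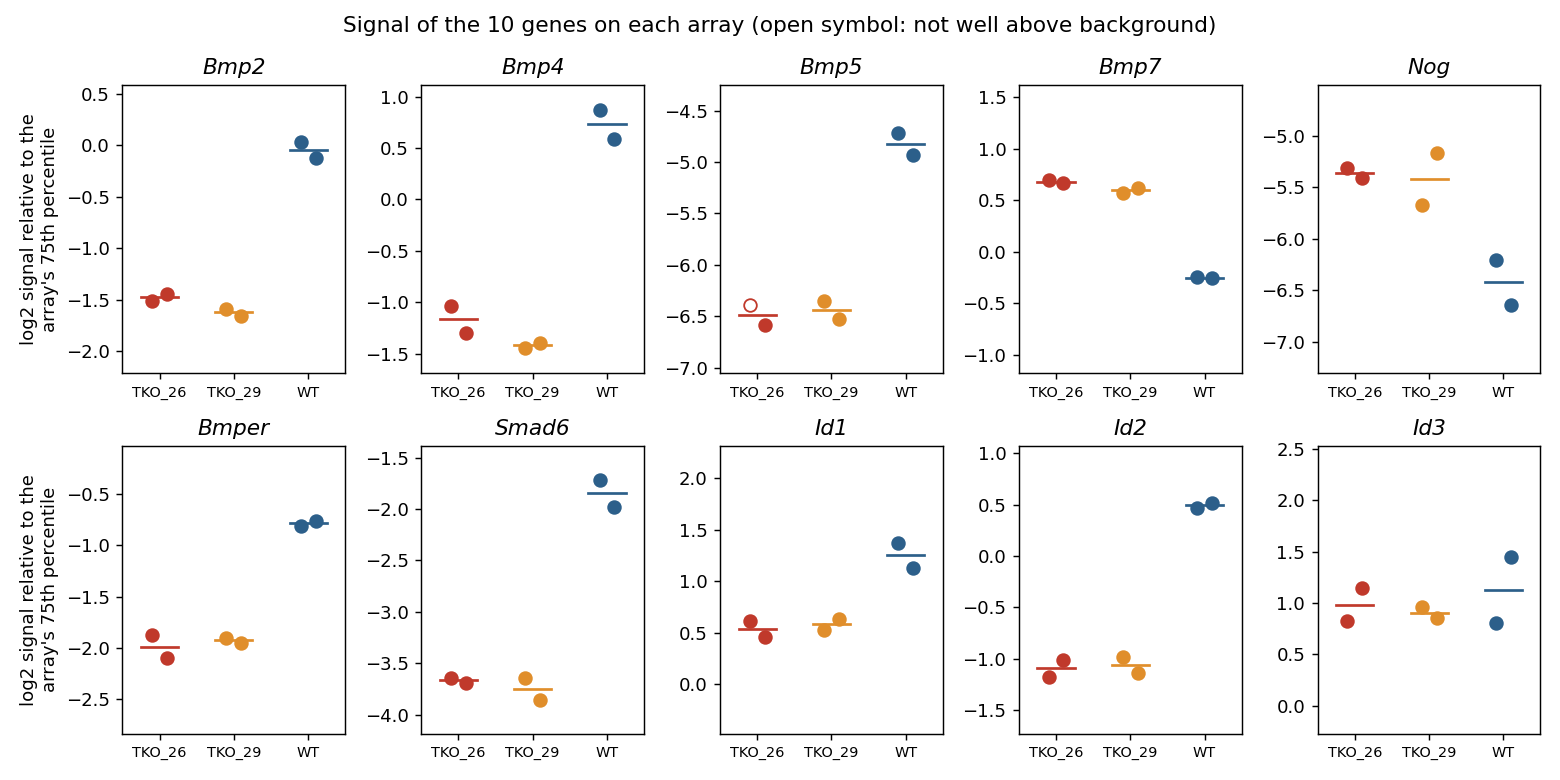
Log2 signal relative to the array's 75th percentile (vertical axis, each panel spanning the same range) of the 10 genes on the 2 arrays each of TKO_26, TKO_29 and WT. Points are arrays, bars are line means and the open point (Bmp5 on TKO_26 replicate 1) was not well above background. In all panels but that of Id3 the 4 TKO points lie on one side of the 2 WT points.

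The extracellular regulators moved in opposite directions. Bmper was 2.24-fold lower and Nog 2.05-fold higher in TKO than in WT. Bmper, a secreted BMP-binding protein known from endothelium that can restrain or promote signalling, had -1.88 and -2.10 in TKO_26 and -1.90 and -1.95 in TKO_29, against -0.81 and -0.77 in WT. The WT arrays were nearly alike and stood 1.07 above the highest TKO array. Bmper fell by 1.20 ± 0.13 in TKO_26 (adjusted p = 0.00534) and by 1.14 ± 0.13 in TKO_29 (adjusted p = 0.00483). Without TKO_29 replicate 2 the difference was -1.15 and the adjusted p in TKO_29 was 0.0521, just over the threshold.

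Nog encodes noggin, which binds BMP2, BMP4 and BMP7 and keeps them from their receptors. Its signal was low, with unscaled processed signals of 165 and 265 on the TKO_26 arrays and 474 and 338 on the TKO_29 arrays, against 70.9 and 89.1 on the WT arrays. All 6 arrays were well above background. The levels were -5.31 and -5.41 in TKO_26 and -5.67 and -5.17 in TKO_29, against -6.21 and -6.64 in WT, so the groups were separated by 0.54, about the distance between the arrays of TKO_29 (0.50) or of WT (0.43).

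Nog rose by 1.07 ± 0.24 in TKO_26 (adjusted p = 0.0364) and by 1.01 ± 0.24 in TKO_29 (adjusted p = 0.0308), the weakest of the 7 calls. The call was lost when any 1 of the 6 arrays was left out, with differences from 0.82 (without WT replicate 2) to 1.25 (without WT replicate 1). It was also lost with normexp (0.39), with the deposited matrix (0.68, adjusted p 0.0273 and 0.0172 but under 2-fold) without a filter on dim probes (adjusted p 0.151 and 0.116) and with the replicate number as a block (0.0769 and 0.0635). The direction was the same in each case.

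Smad6 is an inhibitory Smad that is induced by BMP signalling and blocks the receptor-activated Smads, and it is abundant in endothelium and heart valves. It had -3.64 and -3.69 in TKO_26 and -3.64 and -3.86 in TKO_29, against -1.71 and -1.98 in WT. The gap of 1.66 between the genotypes was the widest of the 10 genes. Smad6 fell by 1.82 ± 0.16 in TKO_26 (adjusted p = 0.00276) and by 1.90 ± 0.16 in TKO_29 (adjusted p = 0.00216), 3.63-fold on average.

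Smad6 and Bmp5 both fell but have very different promoters in RefSeq (assembly GRCm38.p6), where a promoter is the 250 bases before and the first 50 bases of the transcript. The sequences are shown for their CpG dinucleotides, the sites at which TET enzymes oxidise methylated cytosine, which are in capitals. The first is chr9:64022010-64022309 on the minus strand and the second chr9:75775115-75775414 on the plus strand.
Smad6: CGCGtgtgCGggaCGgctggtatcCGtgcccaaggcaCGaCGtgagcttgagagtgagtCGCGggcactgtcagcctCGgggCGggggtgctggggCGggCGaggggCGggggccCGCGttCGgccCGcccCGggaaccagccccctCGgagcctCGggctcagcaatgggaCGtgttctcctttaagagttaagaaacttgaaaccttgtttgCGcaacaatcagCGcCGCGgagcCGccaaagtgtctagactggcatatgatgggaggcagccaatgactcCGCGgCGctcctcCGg
Bmp5: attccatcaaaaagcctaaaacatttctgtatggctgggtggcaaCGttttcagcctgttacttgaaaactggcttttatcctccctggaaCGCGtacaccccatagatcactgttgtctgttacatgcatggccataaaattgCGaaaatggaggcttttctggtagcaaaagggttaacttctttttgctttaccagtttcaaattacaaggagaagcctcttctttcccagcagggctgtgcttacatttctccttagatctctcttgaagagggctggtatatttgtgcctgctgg
The Smad6 promoter holds 31 CpG and the Bmp5 promoter 4, against a median of 7 over the 32851 promoters of the table. The table holds promoters of 6 of the 10 genes, and the others had 31 CpG (Bmper), 21 (Id2), 19 (Id3) and 12 (Bmp4). Genes that fell thus lay at both ends of this range, and Id3, which did not pass, lay within it. DNA methylation was not measured in these samples.

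Id proteins are helix-loop-helix factors without a DNA-binding region that hold basic helix-loop-helix partners inactive. Id2 was 2.97-fold lower in TKO than in WT, Id1 1.62-fold lower without reaching 2-fold, and Id3 showed no difference beyond the spread of its arrays.

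Id2 had -1.17 and -1.01 in TKO_26 and -0.98 and -1.13 in TKO_29, against 0.47 and 0.52 in WT. It fell by 1.59 ± 0.13 in TKO_26 (adjusted p = 0.00252) and by 1.55 ± 0.13 in TKO_29 (adjusted p = 0.00230), and its TKO and WT arrays were 1.45 apart. Id1, a widely used readout of BMP signalling, had 0.61 and 0.46 in TKO_26 and 0.53 and 0.63 in TKO_29, against 1.38 and 1.13 in WT. All 4 TKO arrays lay below both WT arrays, with a gap of 0.50. Id1 differed by -0.72 ± 0.15 in TKO_26 (adjusted p = 0.0286) and by -0.67 ± 0.15 in TKO_29 (adjusted p = 0.0247), past the adjusted p in both lines but under 2-fold.

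Id3 had 0.82 and 1.14 in TKO_26 and 0.96 and 0.85 in TKO_29, against 0.81 and 1.45 in WT. The WT arrays spanned 0.64 and enclosed every TKO array. The differences were -0.15 ± 0.26 in TKO_26 (adjusted p = 0.715) and -0.22 ± 0.26 in TKO_29 (adjusted p = 0.516), and without WT replicate 2 the mean difference was 0.13. With such a spread a change of the size of Id1 could not be told from none. Within arrays, the ratio of Id2 to Id1 differed from WT by -0.87 in TKO_26 and -0.88 in TKO_29, with the WT arrays 0.15 to either side of their mean.

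The promoters of Id2, which fell, and of Id3, which did not pass, are shown with 2 short motifs bound by Smads in capitals, searched on both strands. They are the GC-rich element GGCGCC, bound by BMP-activated Smads, and the Smad box CAGAC. No matches overlap. Positions count from the transcript start, with -1 the base before it, and mark the leftmost base of a match. The first is chr12:25096043-25096342 on the minus strand and the second chr4:136143572-136143871 on the plus strand.
Id2: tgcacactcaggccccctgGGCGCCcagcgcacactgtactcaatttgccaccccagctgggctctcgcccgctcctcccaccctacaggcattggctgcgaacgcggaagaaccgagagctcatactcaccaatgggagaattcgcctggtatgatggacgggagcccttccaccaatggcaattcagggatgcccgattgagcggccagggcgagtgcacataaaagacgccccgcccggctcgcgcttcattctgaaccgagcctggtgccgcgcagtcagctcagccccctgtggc
Id3: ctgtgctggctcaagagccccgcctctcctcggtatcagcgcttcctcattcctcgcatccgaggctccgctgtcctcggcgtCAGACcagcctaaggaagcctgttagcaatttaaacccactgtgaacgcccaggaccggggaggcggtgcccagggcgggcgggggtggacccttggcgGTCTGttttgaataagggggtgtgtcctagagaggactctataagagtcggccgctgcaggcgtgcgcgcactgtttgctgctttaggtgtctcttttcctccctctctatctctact
The Id2 window holds 1 GGCGCC, at position -231, and no CAGAC. The Id3 window holds 2 matches to CAGAC, at positions -167 and -68, and no GGCGCC. Of all promoters of the table, 11.9% hold GGCGCC and 49.6% hold CAGAC. Of the other promoters of the 10 genes in the table, that of Bmp5 holds 1 match to CAGAC (position -134) and those of Bmp4, Bmper and Smad6 hold neither motif. A match describes the letters only, and these windows leave out more distant enhancers.

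In all, 6 of the 10 genes fell and 1 rose. Over all genes tested 6.59% fell and 4.05% rose. When no fold was required, 9 of the 10 passed the adjusted p in both lines, 7 lower and 2 higher, against 10.7% lower and 8.58% higher over all genes. In 7 genes all TKO arrays lay below both WT arrays, and in 2 all lay above, against 25.5% and 24.9% of all genes. The median difference was -1.34 over the 10 genes and -0.04 over all genes. The genes were chosen with results of these arrays known, so these shares describe them and test nothing.

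Counting each line as 1 replicate, none of the 10 genes passed (0 of 10, limma on line averages, adjusted p from 0.0921 for Bmp4 to 0.773 for Id3), where 0.906% of all genes did, 0.752% lower and 0.154% higher. At an unadjusted p under 0.05, 8 of the 10 passed, all but Id1 and Id3, against 18% of all genes. In that test WT, with n = 1 line, is assumed to vary as much as the TKO lines do. With an intensity trend in the variance 5 of the 10 passed it, where 1520 of all 21421 genes did. With the deposited matrix 6 of the 10 passed, where 1812 of all 21421 genes did.

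**Figure D2:**
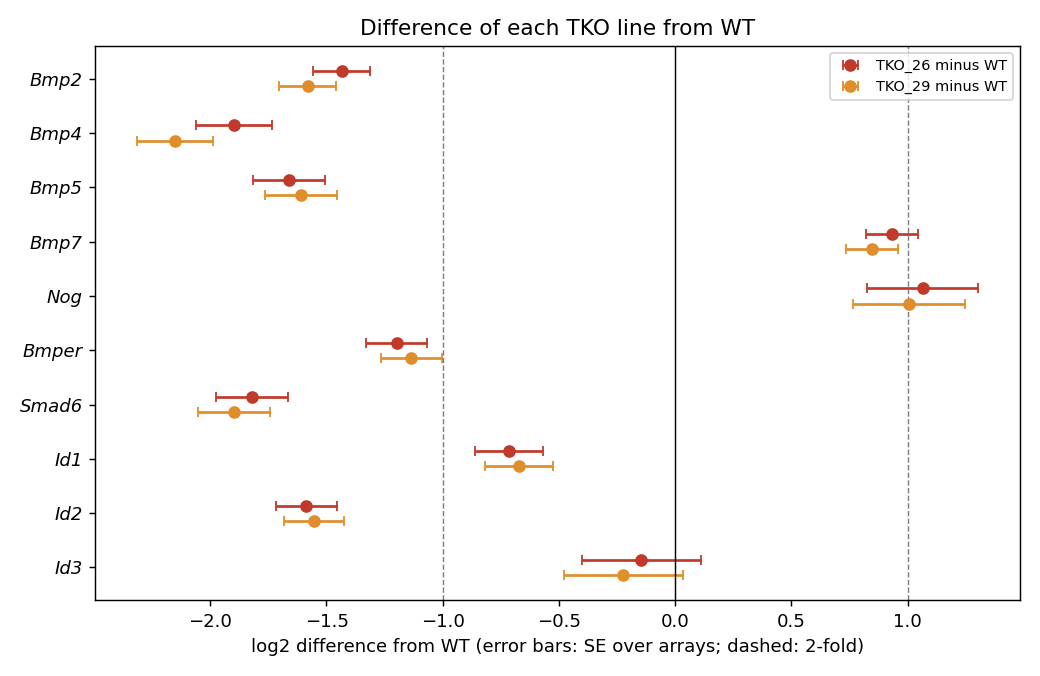
Log2 difference from WT (horizontal axis) of the 10 genes in TKO_26 and TKO_29, with the standard error from the fit of 6 arrays. Dashed lines mark 2-fold, and in each gene the points of the TKO lines lie within 0.25 of each other.

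The difference between TKO_29 and TKO_26 was between 0.03 (Id2) and 0.25 (Bmp4) in size. None of the 10 genes passed the test between the lines (0 of 10 in limma, adjusted p from 0.370 to 0.894), and 0 of 10 had an unadjusted p under 0.05, against 0% of all genes by adjusted p and 22.3% by unadjusted p. For Bmp4 the difference was -0.25 ± 0.16, and for Nog, where the error was larger, -0.06 ± 0.24.

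Bmp5, Bmper and Smad6 lie on chromosome 9, and all 3 fell, where 9.11% of the 812 genes tested on that chromosome fell. Another 3, Bmp2, Bmp7 and Id1, lie on chromosome 2, and 1 of them fell, against 8.72% of the 1124 genes tested there.

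Of 60 other pathway genes, 49 were bright enough to test, of which 2 rose, 7 fell and 40 did not pass, where 4.05% of all genes rose and 6.59% fell. The median difference of the 49 was -0.43. Bmp10, Bmp15, Gdf2, Gdf6, Gdf7, Rgmb, Hjv, Smad9, Chrdl1, Sost and Bambi were too dim to test. Without the 2-fold requirement 2 of the 49 were higher and 15 lower, against 8.58% higher and 10.7% lower over all genes. In 25 of the 49 genes all TKO arrays lay below both WT arrays and in 8 all lay above, against 25.5% and 24.9% of all genes. The list was put together with earlier results of these data known.

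Of 6 other ligands tested, 2 rose and none fell. Gdf3, a ligand of stem cells related to the BMPs, had 0.63 and 0.77 in TKO_26 and 0.67 and 0.52 in TKO_29, against -0.34 and -0.55 in WT. It rose 2.13-fold, and its dimmer probe differed by 0.97 in TKO_26 but only by 0.18 in TKO_29. The Gdf3 call was lost without TKO_29 replicate 1 (difference 1.06), without TKO_29 replicate 2 (1.13) and without WT replicate 2 (0.98), and also with the mean of its probes (0.83) and without a filter on dim probes. Bmp3, an atypical BMP that opposes the others, was well above background on 3 of 4 TKO arrays and no WT array, and passed the test, but the bound on its increase was only 1.48-fold. Its call was lost when any 1 of the TKO arrays was left out, where the difference was 2.45 or more, and with normexp (0.53), with the deposited matrix (1.01) and without a filter.

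Among 11 receptors and co-receptors 1 fell and none rose. Acvrl1, the type I receptor ALK1 of endothelial cells, had -5.48 and -5.58 in TKO_26 and -5.67 and -5.61 in TKO_29, against -2.36 and -2.47 in WT. Acvrl1 fell 9.02-fold, with differences of -3.12 ± 0.12 in TKO_26 (adjusted p = 0.000581) and -3.23 ± 0.12 in TKO_29 (adjusted p = 0.000494). Bmpr1a, a type I receptor of BMP2 and BMP4, differed by -0.11 in TKO_26 and -0.27 in TKO_29, and neither difference passed. Bmpr2, the type II receptor, differed by -0.65 and -1.39, past the adjusted p in both lines but at least 2-fold only in TKO_29.

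None of the 3 signal-transducing Smads tested passed. Smad5 had the largest difference, at -0.65 ± 0.12 in TKO_26 (adjusted p = 0.0201) and -0.55 ± 0.12 in TKO_29 (adjusted p = 0.0237), and thus under 2-fold. Smad1 was 0.38 and 0.53 higher on its brightest probe without passing. Its dimmer probe, well above background on all TKO arrays but only 1 WT array, was 0.96 higher in TKO_26 and 2.14 higher in TKO_29. The probes of Smad4 disagreed, the brighter at -0.30 and -0.52 and the dimmer at 0.11 and 0.61. Of 6 other inhibitors inside the cell or in its membrane none passed, and the largest difference in the mean of the lines was that of the ubiquitin ligase gene Smurf1, 0.87 ± 0.24 higher in TKO_26 (adjusted p = 0.0613) and 1.01 ± 0.24 higher in TKO_29 (adjusted p = 0.0310). In TKO_29 alone the brightest probe of its relative Smurf2 differed more, by 1.09 ± 0.20 (adjusted p = 0.0154), against 0.40 ± 0.20 in TKO_26 (adjusted p = 0.216). The other Smurf2 probes disagreed, 1 at 0.52 in TKO_26 and 1.24 in TKO_29 and 1 at 0.15 and -0.64.

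Of 14 other secreted antagonists and modulators 3 fell and none rose. Chrdl2, a chordin-like BMP antagonist, had -8.23 and -8.14 in TKO_26 and -7.93 and -7.60 in TKO_29, against -4.05 and -4.14 in WT. It was not well above background in TKO_26 and fell at least 10.4-fold by processed signal (3.38 in log2). The difference was smaller with normexp (-2.50) and with the deposited matrix (-2.59). Chrdl2 alone of the 49 also passed on line averages (limma adjusted p = 0.0491). Fstl3, a follistatin relative that binds activins and BMPs, fell 3.49-fold, with -3.86, -3.76, -3.61 and -3.35 on the TKO arrays against -1.86 and -1.83 in WT. Cer1, a cerberus-family antagonist of BMP and Nodal, fell 2.66-fold. Chordin (Chrd) was higher by 1.08 and 1.31 without passing, on a dim probe above background on 3 TKO arrays and 1 WT array, and follistatin (Fst) differed by 0.19 and -0.02.

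Of 9 other genes counted as targets 3 fell and none rose, where 6.59% of all genes tested fell. All 9 had a lower mean in TKO, as had 32 of all 49 other pathway genes, and the median difference over all genes was -0.04. Tbx20, a T-box factor of the heart, fell 8.94-fold on its brightest probe, with -5.16 and -5.57 in TKO_26 and -6.75 and -7.07 in TKO_29, against -3.00 and -2.95 in WT. Its other probes differed from WT by -2.38 to -3.08 in the TKO lines. Hey1, a repressor of the heart and vessels that responds to Notch and BMP signals, fell 3.73-fold, with -1.99, -2.20, -2.33 and -2.51 on the TKO arrays against -0.35 and -0.37 in WT. Gata2, a factor of blood progenitors and endothelium, fell 2.35-fold, and its call was lost without WT replicate 1 and without either TKO_29 array, with differences of -1.02, -1.19 and -1.28, and also with normexp (-1.11) and without a filter. The fourth Id gene, Id4, differed by -0.30 and 0.08 and did not pass. Nor did Dlx5, at -0.17 ± 1.23 in TKO_26, where its probe was not well above background, and -1.15 ± 1.23 in TKO_29.

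**Figure D3:**
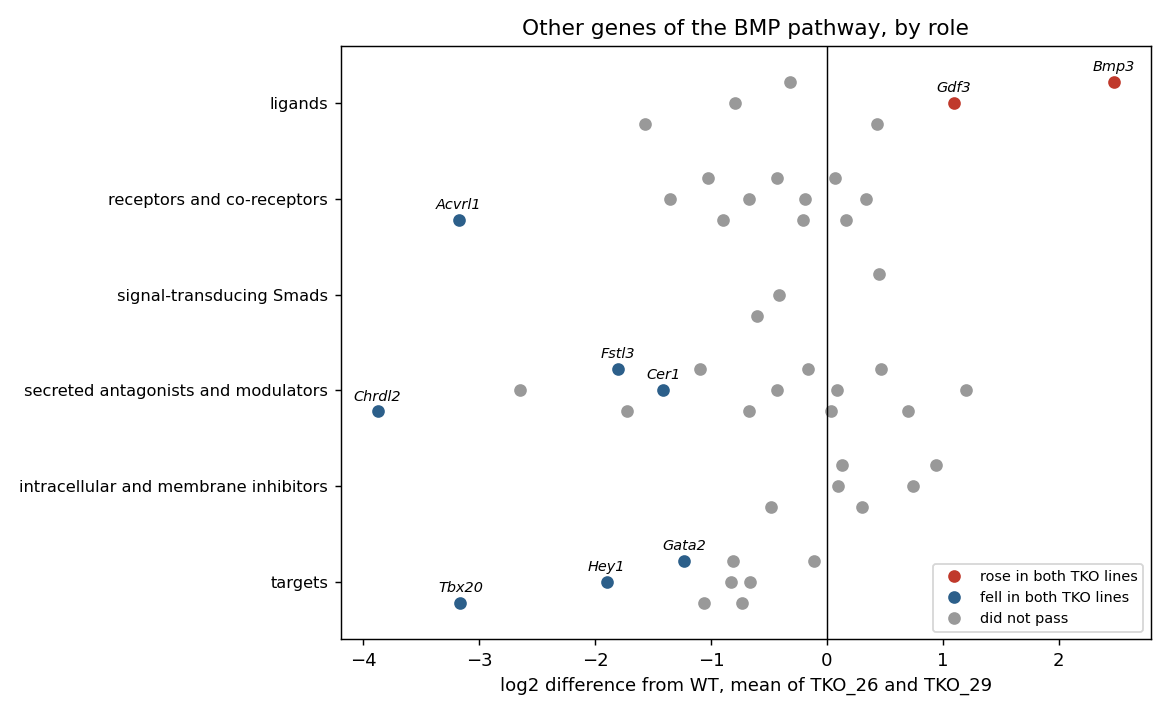
Log2 difference from WT, mean of TKO_26 and TKO_29 (horizontal axis), of 49 other genes of the BMP pathway, in rows by role. Red points rose and blue points fell in both TKO lines, and the 9 genes that passed are named. Vertical offsets within a row have no meaning.

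Several of these genes are expressed in particular cell types, and markers of those cell types changed between the same samples. Of 8 endothelial markers 7 fell and their summed level (relative to the 75th percentile) was 3.17 to 3.41 in TKO_26 and 2.38 to 2.71 in TKO_29, against 7.66 to 9.38 in WT. Most of that sum was Egfl7, whose probe was saturated on 2 arrays and which fell 2.49-fold, while the other 6 fell by bounds of at least 6.87-fold (Tek) to at least 73.9-fold (Tie1). Tie1 and Emcn were at background level on all 4 TKO arrays, and Sox18 on both TKO_26 arrays. Pecam1, another endothelial marker that stem cells also express, did not pass, at 0.46 and 0.57. Of 8 cardiac muscle markers 7 fell, with sums of 0.414 to 0.432 in TKO_26 and 0.426 to 0.427 in TKO_29, against 19.5 to 20.4 in WT. Hand2, a transcription factor of the heart fields, fell at least 92.0-fold. These bounds are for the processed signal, and in log2 they were 6.21 for Tie1 and 6.52 for Hand2. The differences were smaller with normexp (-4.75 and -5.54) and with the deposited matrix (-5.10 and -5.83).

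Of 8 mesenchymal markers 6 fell, with sums of 1.90 to 2.16 in TKO_26 and 2.08 to 2.29 in TKO_29, against 4.12 to 4.91 in WT. Most of the TKO sums was Col1a2, which did not pass, at 0.20 and 0.28. Of 8 endoderm markers 6 fell, with sums of 1.63 to 1.78 in TKO_26 and 1.57 to 1.61 in TKO_29, against 3.04 to 3.30 in WT, and no TKO array detected Afp or Apob above background. Most of the TKO sums was Foxa2, which did not pass, at 0.09 and -0.02, while the 6 that fell did so by 6.01-fold (Amn) to at least 46.7-fold (Cubn). Of 6 blood markers tested 5 fell, with sums of 0.102 to 0.105 in TKO_26 and 0.0954 to 0.100 in TKO_29, against 8.56 to 9.25 in WT, and Hbb-bh1, Hba-x and Hbb-y, which encode globins of the embryo, were detected above background by no TKO array. Of 8 pluripotency markers 3 rose (Nanog, Dppa3 and Prdm14) and 5 did not pass, with sums of 8.47 to 8.53 in TKO_26 and 6.77 to 7.30 in TKO_29, against 4.79 to 4.89 in WT. The dimmer Nanog probe, also well above background on all 6 arrays, differed by only 0.18 in TKO_26 and by -0.48 in TKO_29. The Nanog call was lost in 2 of 16 alternatives, among them the mean of its probes (0.94). Among the markers that did not pass, Zfp42 lay below WT on every TKO array, at -0.98 and -0.93. The neural list had 1 higher (Sox2) and 1 lower (Tubb3) of 6 tested, with sums of 1.23 to 1.23 in TKO_26 and 1.36 to 1.42 in TKO_29, against 1.36 to 1.47 in WT. The call was lost in 6 of 16 alternatives for Sox2 and in 7 of 16 for Tubb3, for both without WT replicate 1 (1.03 and -1.50), without any 1 of the TKO arrays (1.17 to 1.28 and -1.96 to -1.78) and without a filter, and for Tubb3 also with normexp (-1.74). The part of these cell types in the values of the BMP genes was not tested.

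The genes with the most similar profiles over the 6 arrays, among 11530 others measured on all arrays, are given for each gene that passed and was measured on all 6. Id2 was nearest to Tnfaip8l1, with a root mean square distance of 0.02 between centred log2 profiles, and then to Slco4a1 (0.03). Smad6 was nearest to F2r (0.03) and Gramd1b (0.07), Bmp2 to Xaf1 (0.03) and Reck (0.05), and Bmper to St3gal6 (0.04) and Slc52a3 (0.06). Bmp4 was nearest to Dkkl1 (0.07) and Gap43 (0.08), and Nog, whose arrays varied more, to Ecel1 and 4933412E12Rik (both 0.11). All of these genes were compared over the same 6 arrays of 3 lines, and Ecel1 did not itself pass.

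**Figure D4:**
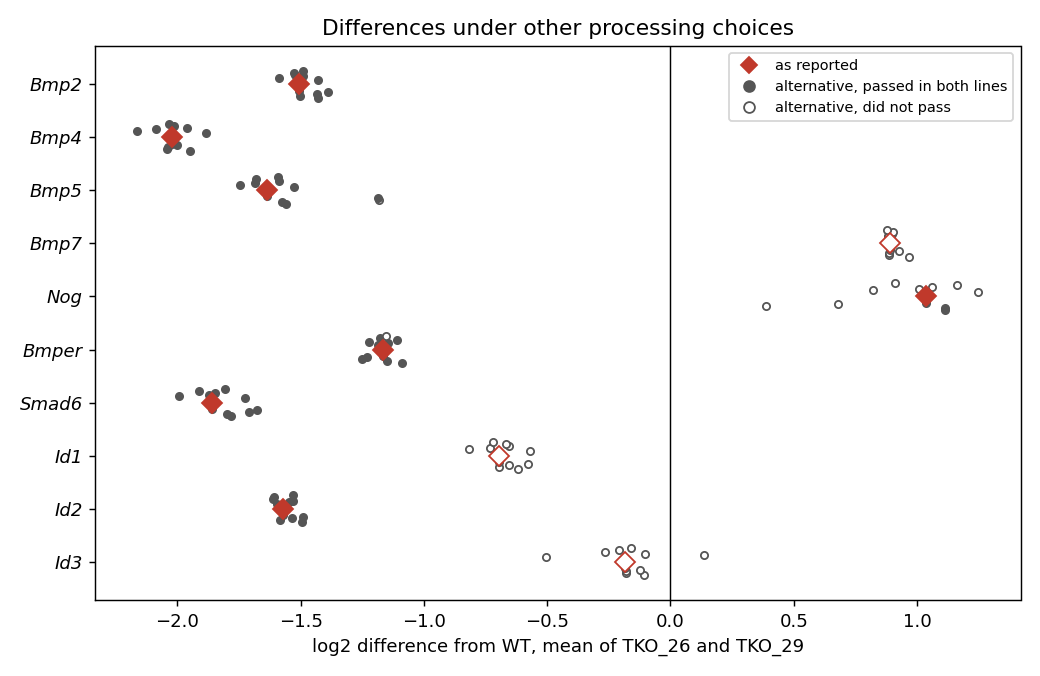
Log2 difference from WT, mean of TKO_26 and TKO_29 (horizontal axis), of the 10 genes as reported (red diamonds) and under each alternative (small circles, filled where the gene passed in both lines). Open diamonds mark genes that did not pass. Bmp2, Bmp4, Smad6 and Id2 passed under each of their 16 alternatives, and Nog was the most scattered, from 0.39 to 1.25.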

How the data were processed

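Per the file headers, spots were quantified with Agilent Feature Extraction 10.5.1.1. Its processed signal is an intensity corrected for background and spatial trend on that array alone, with no scaling across arrays. A matrix of log2 values was deposited too, and no source used here describes how it was made. Its columns followed the log2 median signal of their own arrays (r 0.995 to 1.00, highest r with another array 0.983 to 0.996) and had medians of 6.86 to 6.89. For TKO_29 replicate 1 the r with another array was slightly the higher (both 0.996), so its column rests on its label alone. The matrix is on a log2 scale and not centred per gene.

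Control spots and spots flagged as outliers were left out (263 probes had no other spot on some array) and repeated spots were averaged. RefSeq genes of assembly GRCm38.p6 took up 26023 of the 26439 probes whose accession is a curated mRNA. The array design used an older assembly, so probe coordinates are not printed. The coordinates of the promoters shown are those of GRCm38.p6. From each array's log2 signals its own 75th percentile was subtracted, taken among 19178 probes well above background on every array. Probes well above background on both arrays of a line were tested, and the brightest stood for its gene. limma 3.58.1 (R 4.3.3) was fitted to 6 arrays in 3 groups, and to line averages (TKO n = 2, WT n = 1). P-values were adjusted by Benjamini-Hochberg over all genes. Both fits were also run on simulated data in which every probe counted as detected and WT varied as the TKO lines did. Dim probes and a WT line that varies otherwise were thus not tested there. A bound ("at least") sets an undetected array at the lowest detectable signal there. It holds for the scaled processed signal and not for other processing, which can give smaller differences. Normexp used median spot signals, since no mean signal column was used. Figures were drawn with Python 3.11.15 and matplotlib 3.10.9. Precision is limited by having 6 arrays and 3 lines.

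The 10 genes and all lists were chosen with earlier results of these data known. Named were the 10 genes, up to 5 called genes per pathway list and 2 per cell type list (or the largest difference where none was called), and the 2 most similar profiles of each called gene. Bmpr1a, Bmpr2, Smad1, Smad4, Chrd, Fst, Smurf2, Id4, Dlx5, Pecam1, Egfl7, Tek, Col1a2, Foxa2, Amn, Prdm14, Zfp42, Pax6, Sox1, Nes and the undetected markers were named after their values were seen.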

Additional observations from a re-analysis of the deposited data

How the results depend on the processing

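The count of 7 genes called in both TKO lines was 5 to 9 under the 16 alternatives, and 5 to 6 when 1 array was left out (5 without TKO_29 replicate 2). Bmp2, Bmp4, Smad6 and Id2 passed under all of them. Bmp5 was lost with normexp, Bmper without TKO_29 replicate 2, and Nog, the only higher call, under 10 alternatives, so that higher calls were 0 of 5 with normexp and 0 of 6 with the deposited matrix or without the filter. Why these calls were lost was not tested. Bmp7 and Id1 passed where no 2-fold difference was required, which made the count 9. Id3 ranged from -0.50 (without WT replicate 1) to 0.13 (without WT replicate 2, reversed). On line averages the count of 0 became 2 with normexp, 6 with the deposited matrix and 5 with an intensity trend, and stayed at 0 when any array was left out. The 9 other pathway genes called became 17 without the 2-fold requirement and ranged from 6 to 12 when 1 array was left out. The count between the TKO lines was 0 under every alternative run. Bmp5 could not be tested where signal was demanded on all 6 arrays.

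Replicate numbers were checked as possible pairs. Deviations of same-numbered arrays correlated at 0.39 between TKO_26 and WT, -0.36 between TKO_29 and WT, and -0.44 between TKO_29 and TKO_26 over 15339 genes. The correlations differed in sign, and so did the difference in brightness between replicates 1 and 2. The 75th percentile of processed signal was 507 and 888 in WT, 586 and 1004 in TKO_26, and 2208 and 1130 in TKO_29. Brightness was not separated from pairing, so these correlations cannot decide whether same-numbered arrays form pairs. In the deposited matrix the replicate 2 columns all had a median of 6.88162, and the replicate 1 columns ranged from 6.86109 to 6.8857. What same-numbered arrays share beyond the number was not tested. With the replicate block 6 of the 10 genes were called (Nog was lost), 10 other pathway genes, and 0 between the TKO lines. No paired analysis was possible on line averages because each line is then a single value. Over all genes, 2279 were called in both lines, 1195 after normexp, 1186 where all 6 arrays had to show signal, 1281 without a filter, 4138 without the 2-fold requirement and 1423 without TKO_29 replicate 2. On line averages 194 genes passed, 821 after normexp, 1812 in the deposited matrix, 306 with probes averaged, 1520 with an intensity trend, and 0 with quantile normalisation, with signal on all 6 arrays or without a filter. That count was 118 without TKO_26 replicate 1, 597 without TKO_29 replicate 1 and 0 without any other array. Of the 10 genes, Bmp5 was the one not well above background on every array.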
